A study of Mus musculus with 9 samples.

Results

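Control of entry into S phase was examined through 10 genes: the G1 cyclins Ccnd2, Ccnd3, Ccne1 and Ccne2, the cyclin-dependent kinases Cdk4 and Cdk6, the inhibitors Cdkn1a, Cdkn1b and Cdkn2c, and the transcription factor E2f1. They were taken by gene symbol from 30702 genes measured, and each had 1 probe set of its own. Earlier results of these data were known when they were chosen. The cells were CD8+ T cells of pmel1 mice, which carry a transgenic receptor for a gp100 peptide, marked by Thy1.1 and transferred into naive congenic recipients. All 9 recipients received 100 µg of hgp100 peptide and 400 µg of antibody, and 1 array was run for each mouse, with 3 mice in each of 3 groups. The combination group received 200 µg of agonist anti-CD27 (AT124), 100 µg of anti-PD-1 (RMP1-14) and 100 µg of anti-PD-L1 (10F.9G2). The anti-CD27 group received 200 µg of AT124, and the anti-PD-1/L1 group 100 µg of each blocking antibody, both made up with 200 µg of isotype control. Thy1.1+ CD8+ cells were sorted from the spleen of each mouse on day 4 after the peptide. No group given peptide with isotype control alone was analysed here, so each comparison sets 1 antibody treatment against another, and the ages of the mice were not given in the sources used here.

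A resting T cell enters the cell cycle when D-type cyclins bind CDK4 and CDK6 and begin to phosphorylate the retinoblastoma protein RB, which releases E2F factors. E2F factors switch on the E-type cyclins and the genes of DNA replication, and cyclin E with CDK2 then drives the passage into S phase. The INK4 inhibitor p18 (Cdkn2c) binds CDK4 and CDK6, whereas p21 (Cdkn1a) and p27 (Cdkn1b) act on cyclin-CDK complexes and p27 restrains cyclin E with CDK2. In T cells, antigen and costimulation induce D cyclins and bring about the loss of p27, which is controlled largely at the protein level and so only in part visible in transcripts.

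The 3 anti-PD-1/L1 arrays stood apart from the other 6. Background control probe sets averaged 3.25 ± 0.04 log2 units (SD over 3 arrays) in the combination and 3.27 ± 0.06 in anti-CD27, against 4.06 ± 0.08 in anti-PD-1/L1. Positive control probe sets, by contrast, were at 6.81 ± 0.04 in the combination and 6.70 ± 0.02 in anti-CD27, against 5.75 ± 0.19 in anti-PD-1/L1. The exact two-sided permutation test gave p = 0.1 for every such contrast with the anti-PD-1/L1 group, the smallest p that 3 against 3 allows, and also for the difference of 0.11 in the positive controls between the combination and anti-CD27. The sorted cell type was checked against its markers, and all 6 CD8 T cell markers were above background on every array. Their mean log2 level ran from 10.03 to 10.15 in the combination and from 10.23 to 10.25 in anti-CD27, against 8.90 to 9.45 in anti-PD-1/L1. By limma, 4 of the 6 were called lower in anti-PD-1/L1 than in either other group, and Cd3g was not called. Cd3d was called higher in anti-PD-1/L1, with differences of -0.57 for the combination (adjusted p = 8.05e-05) and -0.33 for anti-CD27 (adjusted p = 0.00184). Of the measured markers of other cells, 0 of 3 to 1 of 3 for NK cells, 2 of 4 for B cells, 1 of 6 to 2 of 6 for myeloid cells, 1 of 2 for CD4 T cells and 0 of 1 for erythroid cells were above background on all arrays of a group. Mean levels of those lists lay between 2.74 and 4.36 in the combination, between 2.77 and 4.49 in anti-CD27 mice and between 2.97 and 4.796 in anti-PD-1/L1 mice. Of these other-cell markers, Itgam, a myeloid gene, was called higher in the combination than in anti-CD27, by 0.61 ± 0.05 (adjusted p = 0.00102 by limma, above background on all 6 arrays). Its part in the differences between these groups, and the part of the array differences in any result below, were not tested. In a bulk sample, fewer cells expressing a gene and less RNA of it per cell cannot be told apart.

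**Figure D1:**
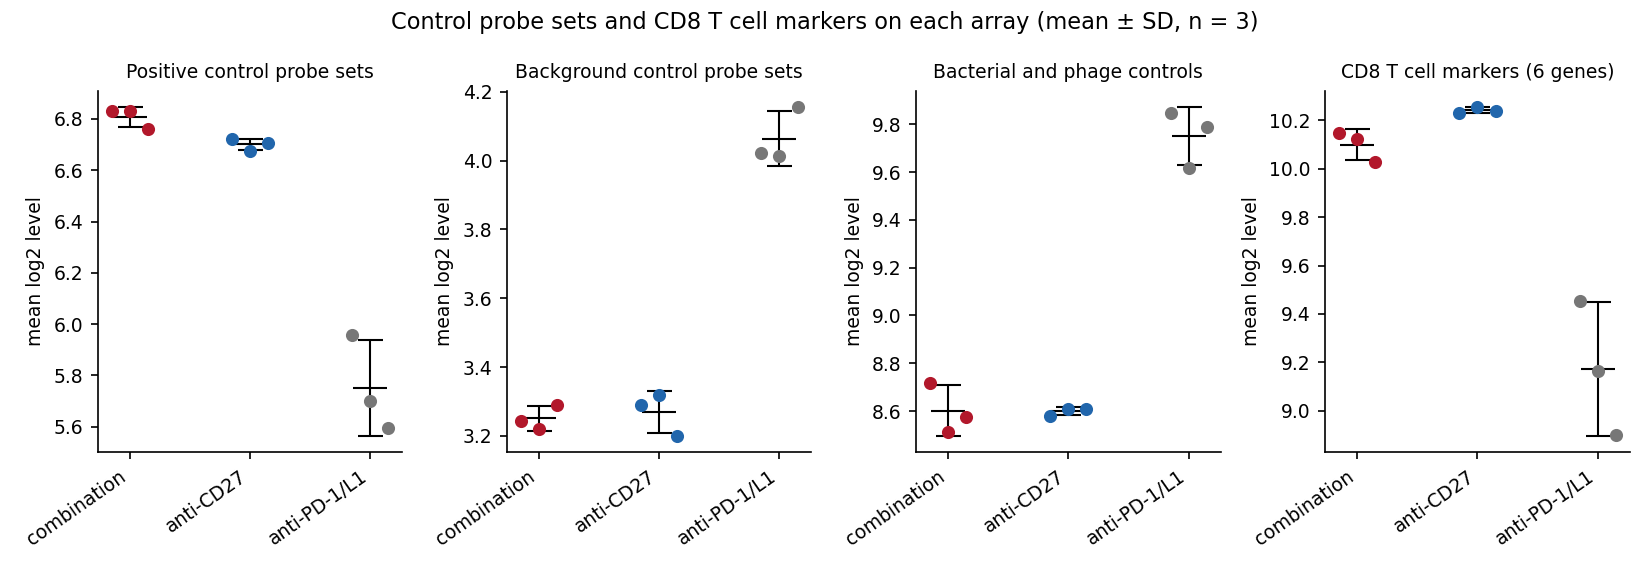
Mean log2 level of positive, background and bacterial and phage control probe sets and of 6 CD8 T cell markers on each array, in the combination, anti-CD27 and anti-PD-1/L1 groups, with mean ± SD over 3 arrays. Vertical axes are cropped to each measure. Positive controls and the mean of the CD8 markers are lowest, and background and bacterial and phage controls highest, on the 3 anti-PD-1/L1 arrays.

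The combination was first set against anti-CD27, which asks what adding PD-1 and PD-L1 antibodies to the CD27 agonist changed. Both E-type cyclins and Cdk6 rose, by 1.59-fold to 1.73-fold, while the D cyclins, Cdk4, the 3 inhibitors and E2f1 did not pass the test. By limma, with Benjamini-Hochberg adjustment over all genes and a threshold of 0.05, 3 of the 10 genes were called higher and 0 lower. Over all genes 1.80% were called, 1.28% higher and 0.528% lower. At an unadjusted p under 0.05, 7 of the 10 were higher and 1 was lower, against 6.56% and 3.13% of all genes. The arrays of the 2 groups did not overlap for 9 of the 10 genes, all but Cdkn2c, whereas they did not overlap for 20.5% of all genes. The median log2 difference was 0.26 over the 10 genes and -0.0032 over all genes tested.

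**Figure D2:**
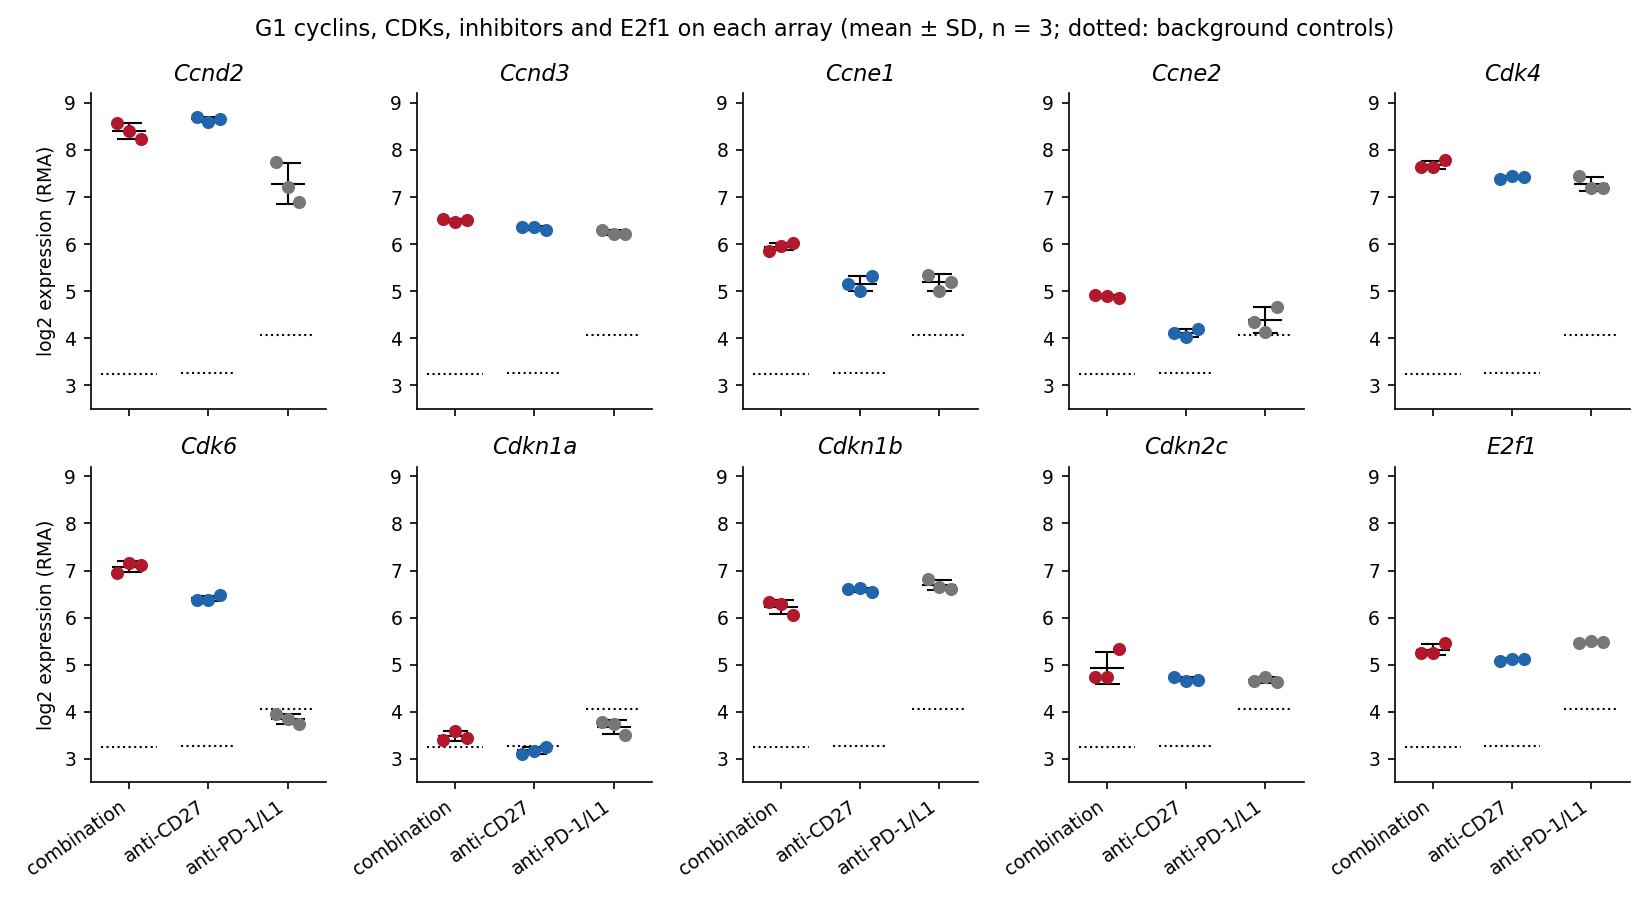
Log2 expression of each of the 10 genes on every array of the combination, anti-CD27 and anti-PD-1/L1 groups, with mean ± SD over 3 arrays and, dotted, the mean of each group's background control probe sets. Ccne1, Ccne2 and Cdk6 are higher on all 3 combination arrays than on any anti-CD27 array, and Cdk6 is at or below background on the anti-PD-1/L1 arrays.

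Ccne1 (probe set TC0700002876.mm.1) encodes cyclin E1, the partner of CDK2 at the start of S phase. Its promoter window, the 250 bases before the RefSeq start on GRCm38.p6, lies at chr7:38107491-38107740 on the minus strand. It is shown because Ccne1 had the largest rise of the 10 genes over anti-CD27 and the window is rich in GGGCGG, the GC box bound by Sp factors in many promoters, marked in capitals on either strand (CCGCCC is the same box on the opposite strand).
Ccne1: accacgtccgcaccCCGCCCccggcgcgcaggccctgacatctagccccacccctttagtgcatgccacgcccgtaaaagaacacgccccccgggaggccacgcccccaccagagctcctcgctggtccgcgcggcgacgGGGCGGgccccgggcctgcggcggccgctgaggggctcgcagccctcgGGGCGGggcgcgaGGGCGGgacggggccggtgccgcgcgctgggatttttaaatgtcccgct
The window holds GGGCGG 4 times, a number reached or passed by 4.09% of the 32851 promoter windows of this length. On the arrays, Ccne1 had log2 levels of 5.87, 5.96 and 6.02 in the combination, against 5.15, 5.004 and 5.33 in anti-CD27 mice and 5.35, 5.01 and 5.19 in anti-PD-1/L1 mice. All 3 combination arrays lay above all 6 others, and the other groups overlapped. Ccne1 rose in the combination over anti-CD27 by 0.79 ± 0.11 on the log2 scale (SE, 1.73-fold, adjusted p = 0.00979 by limma). The call was lost without anti-CD27 replicate 1 (adjusted p = 0.0572) and without combination replicate 2 (adjusted p = 0.0543), with a difference of 0.78 in both fits.

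Cyclin E2, the second partner of CDK2, is encoded by Ccne2 (TC0400000085.mm.1). Its log2 levels were 4.91, 4.89 and 4.86 in the combination, 4.11, 4.02 and 4.21 in anti-CD27 mice and 4.35, 4.14 and 4.67 in anti-PD-1/L1 mice. The combination arrays were again above all others, and they differed among themselves by no more than 0.05. Ccne2 rose over anti-CD27 by 0.78 ± 0.12 (1.72-fold, adjusted p = 0.0158 by limma). Leaving out anti-CD27 replicate 1 or 2, or any 1 of the 3 combination arrays, ended the call (adjusted p between 0.0636 and 0.0832), with differences of 0.73 to 0.79 in those fits. Cyclin E1 and cyclin E2 transcripts moved by nearly the same amount. The within-array difference between Ccne1 and Ccne2 changed by 0.0087 between the combination and anti-CD27 (exact two-sided permutation p = 1).

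Cdk6 (TC0500000008.mm.1) encodes a kinase that pairs with D cyclins and is prominent in blood cells. Its window, at chr5:3343643-3343892 on the plus strand, is shown beside that of Cdk4 because both kinases hold CACGTG, the E-box bound by Myc with Max and by other factors of that class, marked in capitals together with GGGCGG.
Cdk6: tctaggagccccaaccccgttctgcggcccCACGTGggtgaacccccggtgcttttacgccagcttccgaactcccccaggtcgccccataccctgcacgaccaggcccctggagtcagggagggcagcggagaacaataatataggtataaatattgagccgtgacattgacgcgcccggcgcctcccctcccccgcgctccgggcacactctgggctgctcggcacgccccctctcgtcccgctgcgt
Cdk4: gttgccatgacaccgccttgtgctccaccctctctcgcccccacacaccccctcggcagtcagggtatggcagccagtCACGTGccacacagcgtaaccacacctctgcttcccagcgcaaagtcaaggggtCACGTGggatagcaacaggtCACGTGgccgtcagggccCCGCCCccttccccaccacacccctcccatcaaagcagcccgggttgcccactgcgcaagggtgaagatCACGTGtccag
The Cdk6 window has 1 CACGTG, as 6.02% of windows have at least 1. That of Cdk4, at chr10:127063285-127063534 on the plus strand, has 4, which 7 of all windows reach (0.0213%), and 1 CCGCCC. These counts describe letters and are not evidence of binding.

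The kinase Cdk6 was the member that moved most between groups. It stood at 6.95, 7.17 and 7.12 in the combination, against 6.37, 6.38 and 6.47 in anti-CD27 mice and 3.96, 3.85 and 3.74 in anti-PD-1/L1 mice. The 3 groups did not overlap, and their order was combination, anti-CD27, anti-PD-1/L1. Cdk6 rose in the combination over anti-CD27 by 0.67 ± 0.08 (1.59-fold, adjusted p = 0.00574 by limma). Of the 10 genes, only Cdk6 was called in this comparison under all 19 other settings tried, with 0.0420 as the highest adjusted p. On all 3 anti-PD-1/L1 arrays Cdk6 was at or below the mean of the array's background control probe sets, so its level there has only an upper bound. By limma, Cdk6 exceeded its anti-PD-1/L1 level by 3.23 in the combination (adjusted p = 2.61e-08) and by 2.56 in anti-CD27 (adjusted p = 7.49e-08). With the anti-PD-1/L1 arrays set at background these were 8.08-fold and 5.09-fold, values that were not tested. The positive control covariate gave 2.68 (adjusted p = 0.0120) and 2.07 (adjusted p = 0.0146) on the log2 scale.

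Cdk4 (TC1000001546.mm.1), the other kinase that pairs with D cyclins, spread much less. It had log2 levels of 7.64, 7.63 and 7.79 in the combination, 7.39, 7.45 and 7.42 in anti-CD27 mice and 7.45, 7.20 and 7.19 in anti-PD-1/L1 mice. The combination arrays were above all others, while anti-CD27 and anti-PD-1/L1 met at 7.45. The difference between the combination and anti-CD27 was 0.27 ± 0.08 (adjusted p = 0.208 by limma), and Cdk4 was called only in some settings, for example when the 6 arrays of these groups were fitted alone (adjusted p = 0.0493). Within arrays, Cdk4 minus Cdk6 was lower in the combination than in anti-CD27 by 0.40 (difference -0.40, exact two-sided permutation p = 0.1, the smallest possible, and 0.15 after adjustment over 12 such tests). All 3 combination values lay below all 3 anti-CD27 values, and 3 arrays a group cannot take this past the threshold.

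Neither D cyclin passed the test against anti-CD27. Ccnd2 (TC0600003169.mm.1), which encodes the D cyclin first induced in stimulated lymphocytes, was at 8.57, 8.41 and 8.22 in the combination, 8.70, 8.60 and 8.66 in anti-CD27 mice and 7.75, 7.22 and 6.89 in anti-PD-1/L1 mice. The combination arrays lay just below the anti-CD27 arrays, and the anti-PD-1/L1 arrays lay below both and spread over 0.85. Ccnd2 differed between the combination and anti-CD27 by -0.25 ± 0.19 (adjusted p = 0.936 by limma).

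Ccnd3 (TC1700000917.mm.1), the D cyclin needed for the expansion of developing thymocytes, had log2 levels of 6.53, 6.47 and 6.51 in the combination, 6.36, 6.36 and 6.30 in anti-CD27 mice and 6.31, 6.22 and 6.23 in anti-PD-1/L1 mice. The arrays of each group lay within 0.086 of one another, and the combination was highest. The difference over anti-CD27 was 0.16 ± 0.05 (adjusted p = 0.235 by limma), and it passed with array weights by group (adjusted p = 0.0295). Within arrays, Ccnd2 minus Ccnd3 differed by -0.41 between the combination and anti-CD27 (exact two-sided permutation p = 0.1). The third D cyclin gene, Ccnd1, had no probe set of its own here.

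The inhibitor p27 acts on cyclin E with CDK2 and is abundant in resting T cells. Its gene, Cdkn1b (TC0600001595.mm.1), has its window at chr6:134920151-134920400 on the plus strand. The window is shown because, of Cdkn1a, Cdkn1b and Cdkn2c, only Cdkn1b was called against anti-PD-1/L1 in the combination. Other inhibitor genes, Cdkn1c, Cdkn2a, Cdkn2b and Cdkn2d, were also called lower there by limma, with differences from -0.86 to -0.31. GGGCGG is in capitals.
Cdkn1b: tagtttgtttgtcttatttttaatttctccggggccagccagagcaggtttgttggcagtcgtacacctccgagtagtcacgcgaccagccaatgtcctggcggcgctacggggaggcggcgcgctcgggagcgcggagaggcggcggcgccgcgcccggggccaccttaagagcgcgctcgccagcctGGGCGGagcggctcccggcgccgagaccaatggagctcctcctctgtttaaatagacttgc
It holds GGGCGG 1 time, as 32.7% of windows hold it at least 1 time, and no CACGTG. Cdkn1b had log2 levels of 6.34, 6.29 and 6.06 in the combination, 6.60, 6.62 and 6.54 in anti-CD27 mice and 6.82, 6.65 and 6.60 in anti-PD-1/L1 mice. Every combination array was below every other array. The difference from anti-CD27 was -0.36 ± 0.09 (adjusted p = 0.0982 by limma). It passed the test after quantile normalization of the deposited values (-0.40, adjusted p = 0.0257) and without anti-PD-1/L1 replicate 1 (adjusted p = 0.0495). Array weights by group (adjusted p = 0.0146), the positive control covariate (adjusted p = 0.0306) and quantile normalization of the 6 arrays alone (adjusted p = 0.0270) also called it.

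Cdkn1a (TC1700000496.mm.1) encodes p21, an inhibitor that p53 induces. It was close to background: its levels were 3.41, 3.60 and 3.45 in the combination, 3.11, 3.17 and 3.26 in anti-CD27 mice and 3.79, 3.74 and 3.50 in anti-PD-1/L1 mice. It exceeded the array's background controls on 3 of 3 combination arrays, 1 of 3 anti-CD27 arrays and 0 of 3 anti-PD-1/L1 arrays. The combination minus anti-CD27 was 0.30 ± 0.09 (adjusted p = 0.185 by limma). This difference passed with array weights by group (adjusted p = 0.0201) and after quantile normalization of the 6 arrays alone (adjusted p = 0.0423). Cdkn1a was also the only one of the 10 genes among the lower 50% of genes by mean level.

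Cdkn2c (TC0400003271.mm.1), the gene of p18, had 4.74, 4.74 and 5.33 in the combination, 4.74, 4.65 and 4.68 in anti-CD27 mice and 4.66, 4.74 and 4.62 in anti-PD-1/L1 mice. Only combination replicate 3 stood above the rest, and the groups overlapped. Its difference from anti-CD27 was 0.25 ± 0.14 (adjusted p = 0.777 by limma), and 0.05 without that replicate.

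E2f1 (TC0200004942.mm.1) encodes an activating E2F factor and is itself a target of E2F. It had levels of 5.25, 5.25 and 5.46 in the combination, 5.08, 5.12 and 5.12 in anti-CD27 mice and 5.45, 5.49 and 5.47 in anti-PD-1/L1 mice. Its order among groups was unlike that of the E cyclins: anti-PD-1/L1 was highest and anti-CD27 lowest. The combination exceeded anti-CD27 by 0.21 ± 0.06 (adjusted p = 0.213 by limma). This difference passed only with array weights by group (adjusted p = 0.04996).

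The combination against anti-PD-1/L1 asks what the CD27 agonist changed in the presence of the blocking antibodies, while anti-CD27 against anti-PD-1/L1 sets the agonist against the blocking antibodies. Both comparisons share the anti-PD-1/L1 arrays, and each shares its other group with the first comparison. Of all genes, 72.3% were called between the combination and anti-PD-1/L1, 19.0% higher and 53.3% lower, and the median of all genes was -0.26. Between anti-CD27 and anti-PD-1/L1, 70.8% were called, 17.1% higher and 53.7% lower, also with a median of -0.26. A member called in either comparison is therefore an ordinary event on these arrays.

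Against that background, 7 of the 10 genes were called between the combination and anti-PD-1/L1, 6 higher and 1 lower, and 7 had arrays that did not overlap, as had 73.5% of all genes. Beside Cdk6, the genes that rose were Ccnd2 by 1.12 ± 0.19, Ccnd3 by 0.25 ± 0.05, Ccne1 by 0.76 ± 0.11, Ccne2 by 0.50 ± 0.12 and Cdk4 by 0.41 ± 0.08 (adjusted p between 0.000251 and 0.00495 by limma). Quantile normalization turned Ccnd3 to -0.20, called lower (adjusted p = 0.00963), and Cdk4 to -0.07, not called (adjusted p = 0.408). The mean of the positive control probe sets as a covariate turned Ccnd2 to -1.38, called lower (adjusted p = 0.0384). With it Cdk4 turned to -0.23, not called (adjusted p = 0.705). That mean ran from 5.59 to 5.96 on the anti-PD-1/L1 arrays and from 6.68 to 6.83 on the other 6. The covariate thus nearly follows the group, and results with it rest on extrapolation between groups. Cdkn1b fell by 0.46 (difference -0.46 ± 0.09, adjusted p = 0.00131 by limma). Cdkn1a differed by -0.20 (adjusted p = 0.0710), Cdkn2c by 0.26 (adjusted p = 0.130) and E2f1 by -0.15 (adjusted p = 0.0546), and these did not pass. With the covariate, the calls of Ccnd3 (adjusted p = 0.975), Ccne1 (adjusted p = 0.880), Ccne2 (adjusted p = 0.326) and Cdkn1b (adjusted p = 0.0678) were lost. Quantile normalization called E2f1 (-0.36, adjusted p = 0.00136) and Cdkn2c (0.40, adjusted p = 0.0223). Cdkn1a was called without anti-PD-1/L1 replicate 3 (adjusted p = 0.00916) or combination replicate 2 (adjusted p = 0.0477), and E2f1 without combination replicate 3 (adjusted p = 0.00623). The median over the 10 genes was 0.33.

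Anti-CD27 alone gave fewer calls against anti-PD-1/L1: 4 of the 10 genes, 2 higher and 2 lower, and 4 had arrays that did not overlap, against 72.5% of all genes. Beside Cdk6, Ccnd2 rose by 1.37 ± 0.19 (adjusted p = 0.000248 by limma), and it turned to -0.88 with the positive control covariate. E2f1 fell by 0.36 (difference -0.36 ± 0.06, adjusted p = 0.000944). Cdkn1a was called lower, by -0.50 ± 0.09 (adjusted p = 0.000994), but it was at or below background on all 3 anti-PD-1/L1 arrays, and background itself was 0.79 lower in anti-CD27. Ccne1 (-0.02, adjusted p = 0.845), Ccne2 (-0.28, adjusted p = 0.0660), Ccnd3 (0.09), Cdk4 (0.14), Cdkn1b (-0.10) and Cdkn2c (0.01) did not pass. The call of E2f1 was lost with the covariate (adjusted p = 0.744) and that of Cdkn1a after quantile normalization (adjusted p = 0.368), which called Ccnd3 (-0.29), Cdk4 (-0.24) and Cdkn1b (-0.51) lower. Ccnd3 (adjusted p = 0.0468) and Cdk4 (adjusted p = 0.0105) were called higher without anti-PD-1/L1 replicate 1, and Ccne2 lower without anti-PD-1/L1 replicate 2 (adjusted p = 0.00839). The median over the 10 genes was -0.0053, against -0.26 for all genes.

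**Figure D3:**
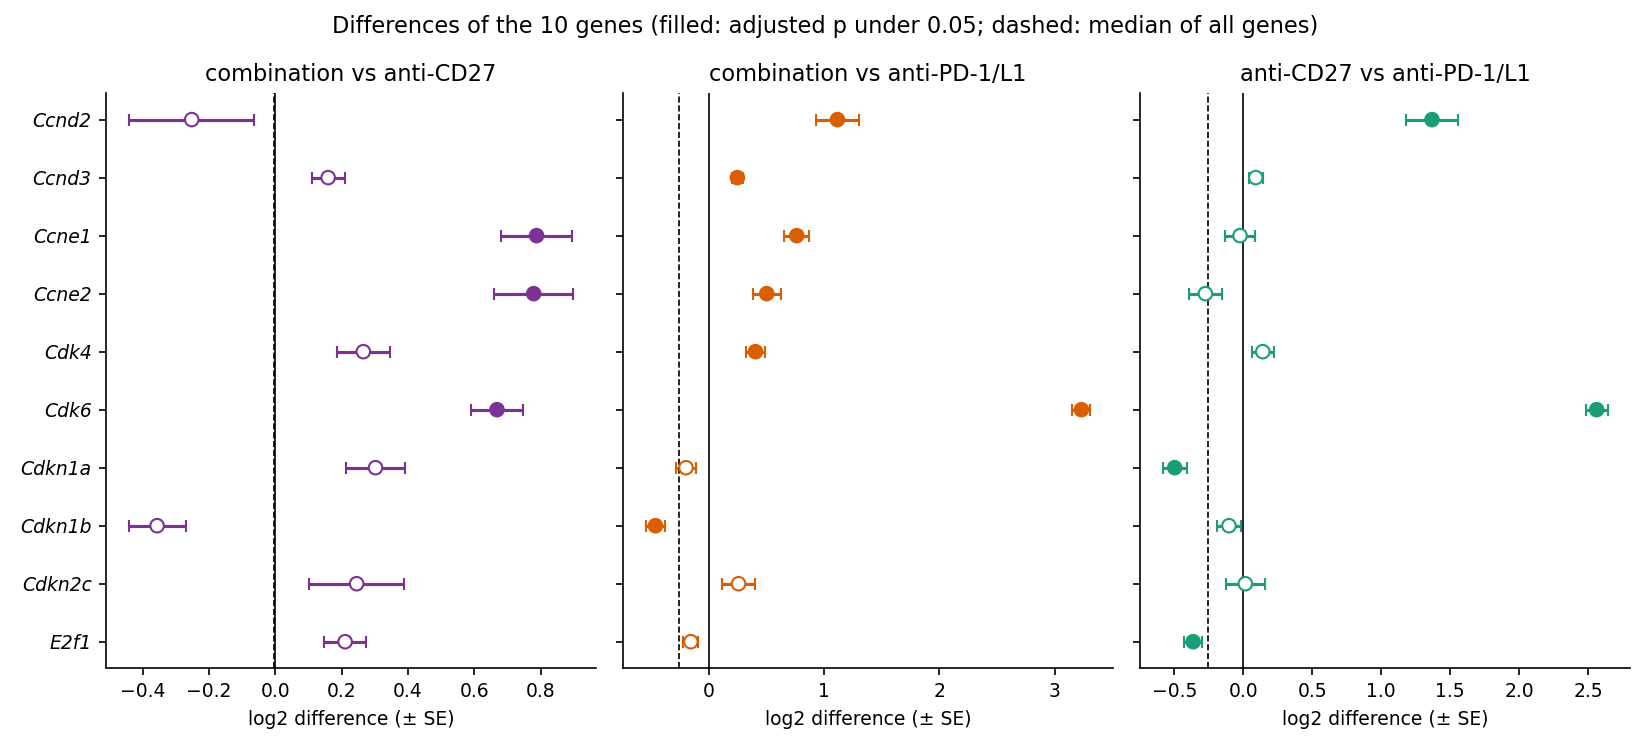
Log2 differences of the 10 genes (± SE) in the 3 comparisons, each on its own scale, with filled points at adjusted p under 0.05 by limma and a dashed line at the median of all genes. In the combination over anti-CD27, Ccne1, Ccne2 and Cdk6 are filled, and the dashed line lies at -0.26 in both comparisons with anti-PD-1/L1.

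Genes that act around these 10 were read from 6 lists, each described by its counts, in the combination against anti-CD27. E2F targets of S phase had the most calls: 14 of 16 measured rose, 0 fell, and the median difference was 0.99, against -0.0032 over all genes. At an unadjusted p under 0.05, 16 of 16 were higher, against 6.56% of all genes. With other settings 10 to 15 of the 16 were called. The 4 largest fitted rises were those of Rrm2, a subunit of ribonucleotide reductase, by 1.52 ± 0.19 (adjusted p = 0.00731), Mcm3 by 1.30 ± 0.09 (adjusted p = 0.00069) and Mcm5 by 1.27 ± 0.16 (adjusted p = 0.00686), subunits of the replicative helicase, and Chek1, the replication checkpoint kinase, by 1.09 ± 0.13 (adjusted p = 0.00537). All 4 were called under each of the other settings. Chek1 was above background on 2 of 3 anti-CD27 arrays, and its difference was 1.03 with the remaining array set at background. Among the proliferation markers, Mki67 differed by 1.08 ± 0.35 (adjusted p = 0.252) and Top2a by 0.80 ± 0.28 (adjusted p = 0.314), and neither passed. Myc, a growth factor-induced regulator of D cyclins and Cdk4, differed by 0.22 ± 0.09 (adjusted p = 0.414).

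**Figure D4:**
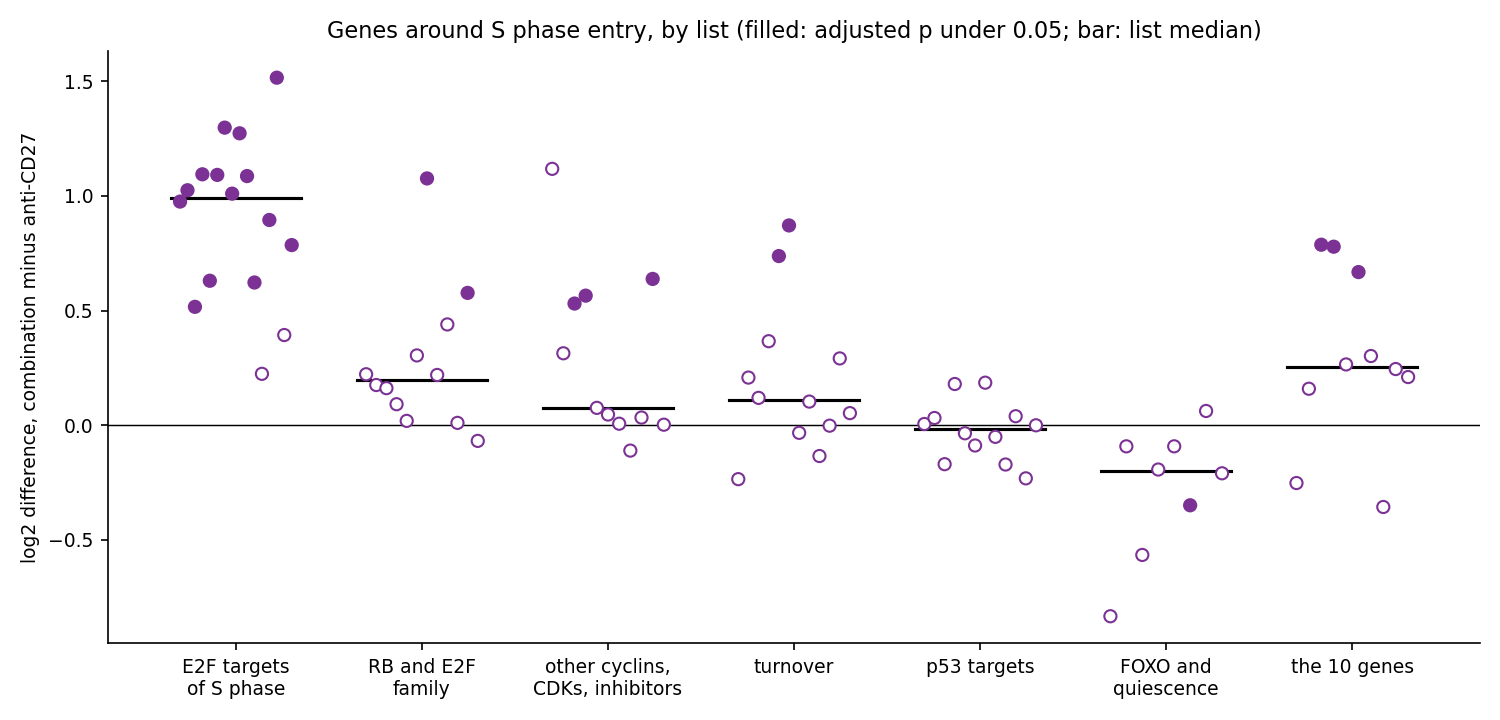
Log2 difference of the combination minus anti-CD27 for each measured gene of 6 lists and for the 10 genes, with filled points at adjusted p under 0.05 by limma and a bar at the median of each list. E2F targets of S phase lie highest, with 14 of 16 filled, and p53 targets lie around 0 with none filled.

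In the RB and E2F family, 2 of 12 genes rose and 0 fell, with a median of 0.20 and 5 of 12 higher at an unadjusted p under 0.05. Shares for all genes were 1.28% called higher, 0.528% called lower, and 6.56% higher and 3.13% lower at the unadjusted threshold, for this list as for those that follow. Other settings called 0 to 3 genes of this family. E2f8, an atypical E2F that represses E2F targets, rose by 1.08 ± 0.16 (adjusted p = 0.0151), a call lost without anti-CD27 replicate 1 (0.0524) or 2 (0.0579). Tfdp1, the DNA-binding partner of E2F factors, rose by 0.58 ± 0.11 (adjusted p = 0.0438). Of the other cyclins, CDKs, activators and inhibitors of G1 and S, 3 of 11 rose and 0 fell, with a median of 0.08 and 5 higher at an unadjusted p under 0.05. Cdc25a, the phosphatase that activates CDK2, rose by 0.53 ± 0.05 (adjusted p = 0.00188), Cks1b, a cofactor of p27 degradation, by 0.64 ± 0.12 (adjusted p = 0.0392), and Cdk2, the kinase of cyclin E, by 0.57 ± 0.10 (adjusted p = 0.0360). Other settings called 1 to 4 of the 11. Cdc25a was called under every other setting, whereas Tfdp1, Cks1b and Cdk2 reached adjusted p of 0.177, 0.171 and 0.164 when 1 array was left out.

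Of the genes for turnover of cyclins and inhibitors, 2 of 12 rose and 0 fell, with a median of 0.11, and 5 were higher and 1 lower at an unadjusted p under 0.05. Other settings called 1 to 6 of the 12. Dtl, the substrate receptor that directs p21 and Cdt1 to degradation, rose by 0.74 ± 0.08 (adjusted p = 0.00376) and was called under every other setting. Fbxo5, an inhibitor of the anaphase-promoting complex, rose by 0.87 ± 0.16 (adjusted p = 0.0377), with adjusted p up to 0.162 when 1 array was left out. None of the 12 measured p53 targets was called by limma, 0 were higher and 2 lower at an unadjusted p under 0.05, and the median was -0.02. The largest difference there was that of Trp53inp1, at -0.23 ± 0.14 (adjusted p = 0.812), and it was called lower under the positive control covariate (-0.41, adjusted p = 0.0474). In 3 of 19 other settings 1 p53 target was called. Among 8 FOXO and quiescence genes, 0 rose and 1 fell, 5 were lower at an unadjusted p under 0.05, and the median was -0.20. The 1 gene that fell was Pik3ip1, an inhibitor of PI3 kinase, with -0.35 ± 0.06 (adjusted p = 0.0207), and up to 0.0966 when 1 array was left out. The number of these 8 genes called lower ranged from 0 to 5 over the other settings, with 5 under array weights by group, 4 on the 6 arrays alone and 0 when all transcript probe sets were tested.

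Against anti-PD-1/L1, where 72.3% of all genes were called (19.0% higher, 53.3% lower), the same lists split as follows in the combination. E2F targets counted 15 higher and 0 lower of 16, and turnover genes 11 and 0 of 12. RB and E2F genes counted 8 and 0 of 12, p53 targets 3 and 5 of 12, and FOXO genes 4 and 2 of 8. Other cyclins, CDKs, activators and inhibitors counted 5 and 4 of 11, and all 4 called lower were inhibitors. Eda2r, among the p53 targets called lower, was above background on no array of either group. Chek1, among the E2F targets called higher, was above background on no anti-PD-1/L1 array. Its difference was 1.12, and 0.46 with those arrays set at background. With the positive control covariate 4 E2F targets, 3 turnover genes, 2 RB and E2F genes, 2 p53 targets and 1 FOXO gene were called. Of the other cyclins, CDKs, activators and inhibitors it called 1, and of all genes 6.26%. Mcm6 rose by 3.23, Mcm3 by 3.17, Rb1 by 2.70, Ccna2 (cyclin A2) by 2.06, E2f8 by 1.75, Cul1 by 1.60 and Cdc25a by 1.24. Dtl was called higher by 1.66, but it was above background on 1 of 3 anti-PD-1/L1 arrays, and the difference was 1.62 with the others set at background. With the covariate, the calls of Ccna2 (adjusted p = 0.249), E2f8 (adjusted p = 0.327) and Cul1 (0.69, adjusted p = 0.117) were lost. Outside the cell cycle machinery, Foxo1 rose by 2.28, Klf2 by 1.26 and Trp53inp1 by 0.92, and Bbc3, a p53-induced death gene, fell by 0.84. The covariate ended these calls, with Foxo1 at 0.66 (adjusted p = 0.605), Klf2 at 0.25 (adjusted p = 0.711) and Bbc3 at -0.49 (adjusted p = 0.312). Myc, Mki67 and Top2a rose by 0.89, 3.98 and 3.69, and with the covariate Myc (adjusted p = 0.111) and Top2a (adjusted p = 0.0947) did not pass. Mki67 was above background on 2 of 3 anti-PD-1/L1 arrays.

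In anti-CD27 over anti-PD-1/L1, 70.8% of all genes were called (17.1% higher, 53.7% lower). E2F targets counted 8 higher and 1 lower, turnover genes 8 and 0, and RB and E2F genes 8 and 0. Counts were 4 and 6 for p53 targets and 5 and 2 for FOXO genes. Other cyclins, CDKs, activators and inhibitors counted 3 and 4, and all 4 called lower were inhibitors. The 1 lower E2F target, Orc1, and the lower p53 target Eda2r were above background on no array of either group. The covariate left 2 E2F targets, 4 turnover genes, 2 RB and E2F genes, 2 p53 targets and 1 FOXO gene called by limma. It left 0 of the other cyclins, CDKs, activators and inhibitors, and 7.89% of all genes were called. Foxo1 rose by 2.85, Rb1 by 2.48, Mcm6 by 2.14, Mcm4 by 1.90, Btg1 by 1.83, Rbl2 by 1.62, Cul1 by 1.39, Ambra1 by 1.23 and Trp53inp1 by 1.15. Calls lost with the covariate were those of Foxo1 (1.39, adjusted p = 0.215), Mcm4 (1.61, adjusted p = 0.0676), Rbl2 (0.29, adjusted p = 0.535) and Cul1 (0.57, adjusted p = 0.133). Ccna2 rose by 0.94, a call lost without anti-CD27 replicate 1 (adjusted p = 0.0529) or 3 (adjusted p = 0.0523), after quantile normalization (0.60, adjusted p = 0.131), with array weights by group (adjusted p = 0.115) and with the covariate (1.69, adjusted p = 0.441). Cdkn1c, the gene of p57, fell by 0.91 and Bbc3 by 0.87, and with the covariate neither passed (Cdkn1c -0.26, adjusted p = 0.662, and Bbc3 -0.56, adjusted p = 0.205). With the positive control covariate, Trp53inp1 turned to -0.81 in the combination and -0.41 in anti-CD27, and Btg1 to -0.34 in anti-CD27. Myc rose by 0.67, Mki67 by 2.90 and Top2a by 2.88, and with the covariate none of them passed (adjusted p = 0.138, 0.0508 and 0.117).

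The genes with the pattern most like E2f1 over the 9 arrays were Banf1, Dcaf12l1 and Coro2a. Their root mean square differences from E2f1, each gene centred on its own mean, were 0.043, 0.052 and 0.054 log2 units, where E2f1 itself had an SD of 0.17 over the arrays. For Cdkn1b they were Tesc (0.076), Olfr137 (0.081) and Tk2 (0.082), with an SD of 0.23 for Cdkn1b. Olfr137 lay under the background controls in all groups, with means of 1.59 in the combination, 1.82 in anti-CD27 mice and 2.06 in anti-PD-1/L1 mice. The means of Dcaf12l1, in the same order 3.24, 3.08 and 3.40, were also under the background means of the groups. Coro2a was near background in anti-PD-1/L1, at 4.09 against 4.06.

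RefSeq promoter windows were given for 8 of the 10 genes, 11 windows in all, and Ccnd2 and Ccne2 had none. The E2F octamers TTTCCCGC, TTTGGCGC, TTTCGCGC and TTTGCCGC, searched on both strands, were in 0 of the 11 windows and in 1.86% of all 32851. This says only that these letters are not in the 250 bases searched. For no gene, E2f1 included, was it tested whether the RefSeq start given is the one used in these cells. CACGTG and GGGCGG were chosen after the windows had been seen.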

How the data were processed

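Transcripts of sorted CD8+ T cells were measured on 9 whole-transcript arrays, 1 per mouse, 3 mice per group. The authors deposited log2 levels, 1 per probe set and array. The submitters' processing notes name RMA and oligo 1.38.0. RMA includes a normalization across arrays, yet the SD over genes averaged 2.25 in the combination, 2.22 in anti-CD27 mice and 2.035 in anti-PD-1/L1 mice. For the probe sets, the genome build is not given in the sources used here. Of 72688 probe sets, 6732 were controls and 31258 named 1 gene; those naming several (1492) or none (33206) were left out. For 441 genes with more than 1 probe set the one with the highest mean was kept, leaving 30702 genes with no filter on low values.

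Limma 3.58.1 in R 4.3.3 was fitted to all 9 arrays with 1 mean per group (6 residual degrees of freedom), with a two-sided moderated test and Benjamini-Hochberg adjustment over 30702 genes. Every adjusted p is from this fit unless a setting is named. The number of arrays, 3 per group, limits the precision. Within-array differences between paralogous genes were compared by exact permutation.

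The genes, the lists and the rule for named genes were chosen with earlier results of these data known. All 10 genes were named, with up to 4 called genes per list in the combination against anti-CD27 (the largest difference where none was called), up to 2 in each other comparison, Myc, Mki67 and Top2a, and the 3 genes most like E2f1 and Cdkn1b. Ccnd1, Rbx1, Mcm7 and Bax were listed but had no probe set of their own, and 1 further listed gene is not reported here. Promoter sequences are from RefSeq, GRCm38.p6. Alternatives were the fit on 6 arrays, a replicate block, quantile normalization, the positive controls as a covariate, a filter on low genes, array weights, a robust trend, all probe sets or their mean, and each array left out. Positive control means did not overlap between any of the groups, so the covariate can hardly be separated from the group.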

Additional observations from a re-analysis of the deposited data

How the results depend on the processing

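In the combination against anti-CD27, 3 of the 10 genes and 554 of all genes were called. Without 1 array the counts ran from 1 to 5 and from 174 to 1226; the lowest were without anti-CD27 replicate 1 and the highest without anti-PD-1/L1 replicate 1. Array weights by group called 8 of the 10 genes and 2209 of all genes. The positive control covariate called 5 of the 10 genes, adding Ccnd2 (-0.50, adjusted p = 0.0128) and Cdkn1b. The 6 arrays alone called 1653 of all genes. Quantile normalization of those 6 arrays, chosen after seeing the data, called 5 of the 10 genes and 1727 of all genes. Ccne1, Ccne2 and Cdk6 were called in each of these settings but those without 1 array, where Ccne1 was lost in 2 fits and Ccne2 in 5.

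Against anti-PD-1/L1 the positive control covariate cut the calls to 2 of the 10 genes and 1921 of all genes in the combination, and to 1 and 2422 in anti-CD27. It turned Ccnd2 to -1.38, called lower, and Cdk4 to -0.23, not called, in the combination. In anti-CD27 it turned Ccnd2 to -0.88, not called. Of other named genes it turned Trp53inp1 to -0.81 in the combination and -0.41 in anti-CD27, and Btg1 to -0.34 in anti-CD27. As the covariate does not overlap between these groups, such turns and losses rest on extrapolation. Quantile normalization turned Ccnd3 to -0.20, called lower, and Cdk4 to -0.071, not called, in the combination. In anti-CD27 it turned Ccnd3 to -0.29 and Cdk4 to -0.24, both called lower. It moved the median of all genes to -0.03 in both comparisons. The cause was not tested. With the lower 50% of genes left out, and so fewer genes tested, 11892 and 11432 were called, and with all transcript probe sets, and so more tested, 42358 and 42213. Without 1 array, 7 to 8 of the 10 genes and 19844 to 22649 of all genes were called in the combination, and 4 to 6 and 19092 to 22220 in anti-CD27.

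Replicate numbers did not pair the mice: deviations of same-numbered arrays correlated from -0.20 to 0.16 over 9 pairs, against -0.18 to 0.16 over 18 others, and an array correlated best with its own number in 4 of 18 cases. A replicate block changed 1 of the 30 member results, Ccne2 in anti-CD27 over anti-PD-1/L1, which was called at adjusted p = 0.0491.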
